A study of Mus musculus with 32 samples.

Results

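Measured across all libraries were 10 mouse genes of lipopolysaccharide (LPS) and Toll-like receptor sensing: Tlr4, Ly96, Cd180, Ly86, Tlr1, Tlr7, Tlr9, Myd88, Irak4 and Irak1. The rule took Toll-like receptors, LPS coreceptors and adaptors by name and used no measured value, although it was set with earlier results of these data known. These are 10 of the 43345 mouse genes in the count tables. RNA was sequenced from B cells with and without ELOF1, an elongation factor of RNA polymerase II, in 32 libraries from spleen B cells and from CH12F3, a mouse B lymphoma line used to study class switching. Spleen B cells were Elof1-cKO (cKO below) or wild-type (WT), were cultured with IL4 and LPS, and were taken at day 3.5 (n = 3 of each genotype) and day 2.5 (n = 5 of each). All CH12F3 libraries came from Elof1-KO cells, carrying either an empty vector (Elof1-KO +Vector, "vector" below) or restored ELOF1 (Elof1-KO +ELOF1, "ELOF1" below), cultured with α-CD40, IL4 and TGF-β and taken at day 1.5 (n = 4 of each), day 3 (n = 2 of each) and day 7 (n = 2 of each). The ELOF1 group is thus a rescued knockout and not an unedited line, and LPS was in the spleen cultures alone. The labels give neither the Cre driver, nor the age of the mice, nor whether the knockout line is 1 clone.

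Mouse genes took 7112130 to 16359477 counts per library. Elof1 lay at 1.27 to 7.65 CPM (counts scaled to a common library size) in cKO spleen libraries and at 10.99 to 55.1 CPM in WT ones, and at 0.966 to 5.50 CPM in vector libraries and at 139.6 to 681 CPM in ELOF1 ones. The library numbers form a first series of 8 libraries, which holds replicates 4 and 5 of each day 2.5 spleen group and replicates 1 and 2 of each day 1.5 CH12F3 group, and a second series of 24. Among the spleen libraries, 4 (1 in each group) had 1582 to 2212 counts of Y-linked genes and 3 to 11 of Xist, against 0 to 4 and 4791 to 15211 in the other 12. They were cKO replicate 3 and WT replicate 2 on both days; the labels do not say whether a number marks the same animal on both days. The T and NK cell markers (6 genes) summed to at most 1.21 CPM in any spleen library, and of the 9 macrophage, monocyte and granulocyte markers S100a8 and S100a9 had 0 counts in all 16, Cd14 and Mpo at most 6, Csf1r at most 7, Itgam 4 to 57, Lyz2 0 to 94 and Adgre1 9 to 130, while Cd68 lay at 6.45 to 18.25 CPM. The labels do not say that replicates came from separate cultures or animals, so p-values measure the spread between these samples, and in bulk RNA fewer cells with a transcript and less of it per cell cannot be told apart.

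Toll-like receptors bind conserved microbial molecules and pass the signal through the adaptor MyD88 to the kinases IRAK4 and IRAK1, which lead to NF-κB and interferon regulatory factors. TLR4 binds LPS together with MD-2 (the product of Ly96), and RP105 (the product of Cd180), a relative of TLR4 without a signalling domain, forms a similar pair with MD-1 (the product of Ly86) on B cells. TLR1 joins TLR2 to bind bacterial lipopeptides at the cell surface, whereas TLR7 binds single-stranded RNA and TLR9 binds DNA with unmethylated CpG inside endosomes, where the chaperone UNC93B1 carries both. B cells use these receptors for T cell-independent activation, and LPS with IL4 is a standard way to make mouse B cells divide and switch class in culture.

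In mm10, the build of the count tables, the LPS receptor genes are Tlr4 (chr4:66827584-66930284, plus strand) and Ly96 (chr1:16688051-16709611, plus strand). The RP105 pair lies on chromosome 13, with Cd180 at chr13:102693558-102739629 and Ly86 at chr13:37345345-37419036, both on the plus strand. Tlr1 is at chr5:64924811-64932761 (minus strand), Tlr7 at chrX:167304929-167330558 (minus strand) and Tlr9 at chr9:106222598-106226883 (plus strand). The adaptor Myd88 is at chr9:119335934-119341411 (minus strand), Irak4 at chr15:94543643-94581815 (plus strand) and Irak1 at chrX:74013914-74023918 (minus strand). Exons of 3 of the genes overlap an antisense gene: Cd180 shares 182 bases with Mast4, Myd88 shares 290 bases with Acaa1a and Irak4 shares 395 bases with Twf1. No source used here says whether the counting used strand, so reads in those stretches may belong to either gene. Irak1 also contains the microRNA gene Mir5132 on its own strand, which took 52 to 185 counts in spleen libraries and 35 to 136 in CH12F3 ones.

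RefSeq promoters (GRCm38.p6, 250 bases before to 50 after the start) were at hand for 7 of the 10 genes, and 3 are printed because the RNA of these genes differed between the spleen groups. In capitals are the matches to 7 motifs searched on both strands: the PU.1 box GAGGAA, the octamer ATGCAAAT, the AP-1 motif TGANTCA, the interferon-stimulated response element, the TATA box TATAAA, the GC box GGGCGG and the kappaB motif.
Tlr9 (chr9:106222348-106222647, plus strand): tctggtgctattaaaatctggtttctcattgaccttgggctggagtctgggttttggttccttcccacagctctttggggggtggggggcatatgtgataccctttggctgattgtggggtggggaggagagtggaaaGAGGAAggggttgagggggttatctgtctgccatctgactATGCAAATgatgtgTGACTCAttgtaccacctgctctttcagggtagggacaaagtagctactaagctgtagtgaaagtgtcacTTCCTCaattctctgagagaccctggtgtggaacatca
Myd88 (chr9:119339969-119340268, minus strand): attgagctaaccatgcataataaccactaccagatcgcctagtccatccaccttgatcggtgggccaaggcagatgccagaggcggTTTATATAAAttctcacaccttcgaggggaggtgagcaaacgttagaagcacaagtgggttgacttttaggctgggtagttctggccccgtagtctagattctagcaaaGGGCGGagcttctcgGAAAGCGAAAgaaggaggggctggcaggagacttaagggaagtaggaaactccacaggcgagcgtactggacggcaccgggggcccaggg
Cd180 (chr13:102693297-102693596, plus strand): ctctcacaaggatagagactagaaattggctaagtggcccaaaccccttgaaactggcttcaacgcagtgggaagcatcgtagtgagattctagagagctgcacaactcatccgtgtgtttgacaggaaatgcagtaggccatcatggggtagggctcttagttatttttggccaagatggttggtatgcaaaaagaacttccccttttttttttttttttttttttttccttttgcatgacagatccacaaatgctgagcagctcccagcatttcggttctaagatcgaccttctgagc
The Tlr9 promoter held the octamer 72 bases before the start, the AP-1 motif 58 bases before it, and the PU.1 box 112 bases before it and, on the other strand, 12 bases after it. The Myd88 promoter, whose RefSeq start lies inside the gene span of the count tables, held the interferon-stimulated response element 40 bases and the GC box 55 bases before the start, and the TATA box on both strands 160 and 164 bases before it. The Cd180 promoter held none of the 7. Of 32544 RefSeq promoters searched in the same way, 1.75% held the octamer, 3.45% the interferon-stimulated response element, 7.79% the AP-1 motif, 8.49% the kappaB motif, 13.6% the TATA box, 28.1% the PU.1 box and 35.9% the GC box. A match is a description of the letters and not of a bound site.

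The 10 genes spanned a wide range of levels, and the 2 chains of the LPS receptor were among the scarcest. Levels were compared between genes in TPM, transcript levels corrected for gene length and scaled to a common total. In spleen B cells, Ly86 averaged 202 ± 43.3 TPM (SD, n = 16), the highest of the 10, and its range did not overlap that of Myd88, next at 76.2 ± 15.1 TPM. Irak1 (65.2 ± 9.44 TPM), Tlr7 (48.7 ± 13.5), Tlr9 (48.2 ± 18.1) and Cd180 (40.4 ± 11.3) followed with overlapping ranges, and Tlr7 stood above Tlr9 in only 7 of 16 libraries. Tlr1 had 23.2 ± 3.96 TPM, Irak4 10.2 ± 1.20, Ly96 6.26 ± 1.75 and Tlr4 2.88 ± 0.546, and this order of the last 4 held in all 16 spleen libraries. In CH12F3 cells the order began with Ly86 (148 ± 19.9 TPM, n = 16), Cd180 (72.6 ± 26.9) and Irak1 (59.3 ± 6.58). Irak1 did not overlap Tlr1, next at 30.4 ± 7.52 TPM, which was followed by Myd88 (27.1 ± 2.75), Tlr9 (23.9 ± 5.48) and Tlr7 (14.8 ± 4.66). Ly96 had 6.001 ± 1.62 TPM, Irak4 4.81 ± 0.692 and Tlr4 1.31 ± 0.827, the lowest in both cell types. Within the receptor pairs, RNA of Ly86 stood above that of Cd180 in 15 of 16 CH12F3 libraries, and RNA of Ly96 stood above that of Tlr4 in all 16 spleen libraries.

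**Figure D1:**
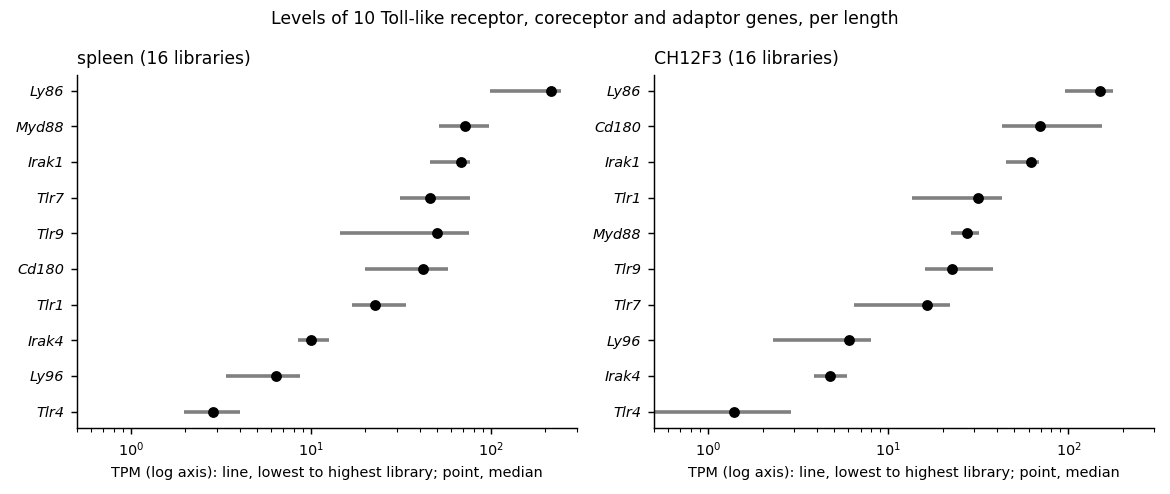
Level of each gene in 16 spleen libraries (left) and 16 CH12F3 libraries (right) in TPM on a log axis, with genes ordered by their mean. Lines run from the lowest to the highest library and points mark the median; the lowest CH12F3 library had 0 counts of Tlr4, so that line runs to the edge of the axis. Ly86 is highest and Tlr4 lowest in both panels.

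Spleen B cells had more RNA of the endosomal receptors and of the adaptor than CH12F3 cells, relative to all genes. In edgeR's quasi-likelihood test over all 32 libraries, 8 of the 10 genes passed an adjusted p of 0.05 (Benjamini-Hochberg over all genes), where 75.5% of all genes tested did (37.9% higher and 37.5% lower in spleen). The difference as spleen over CH12F3 was 1.83 ± 0.07 on the log2 scale (± SE) for Myd88, 1.80 ± 0.08 for Tlr7, 1.44 ± 0.11 for Tlr9, 1.44 ± 0.07 for Irak4, 1.14 ± 0.17 for Tlr4, 0.81 ± 0.08 for Ly86 and 0.42 ± 0.04 for Irak1. Tlr1, the TLR2 partner, was lower in spleen by a log2 difference of -0.22 ± 0.07 (adjusted p = 0.00513), while Cd180 (-0.19 ± 0.10, adjusted p = 0.0909) and Ly96 (0.20 ± 0.14, adjusted p = 0.191) did not pass. The median difference of the 10 genes was 0.97, and that of all genes was 0.00408. When libraries were scaled to the added fly RNA, the median of all genes moved to -1.24 and the signs of Ly86 (-0.44), Irak1 (-0.83), Tlr4 (-0.11) and Ly96 (-1.04) turned, while Myd88 (0.58) and Tlr7 (0.56) still passed as higher in spleen, Tlr9 (0.18, adjusted p = 0.211) and Irak4 (0.19, adjusted p = 0.152) did not pass, and Cd180 (-1.46, adjusted p = 5.396e-12) passed as lower. Relative to that median Tlr9 was at 1.42, Irak4 at 1.43 and Cd180 at -0.21. Cell type, stimulus, culture time and origin of the cells change together between the systems and cannot be told apart.

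**Figure D2:**
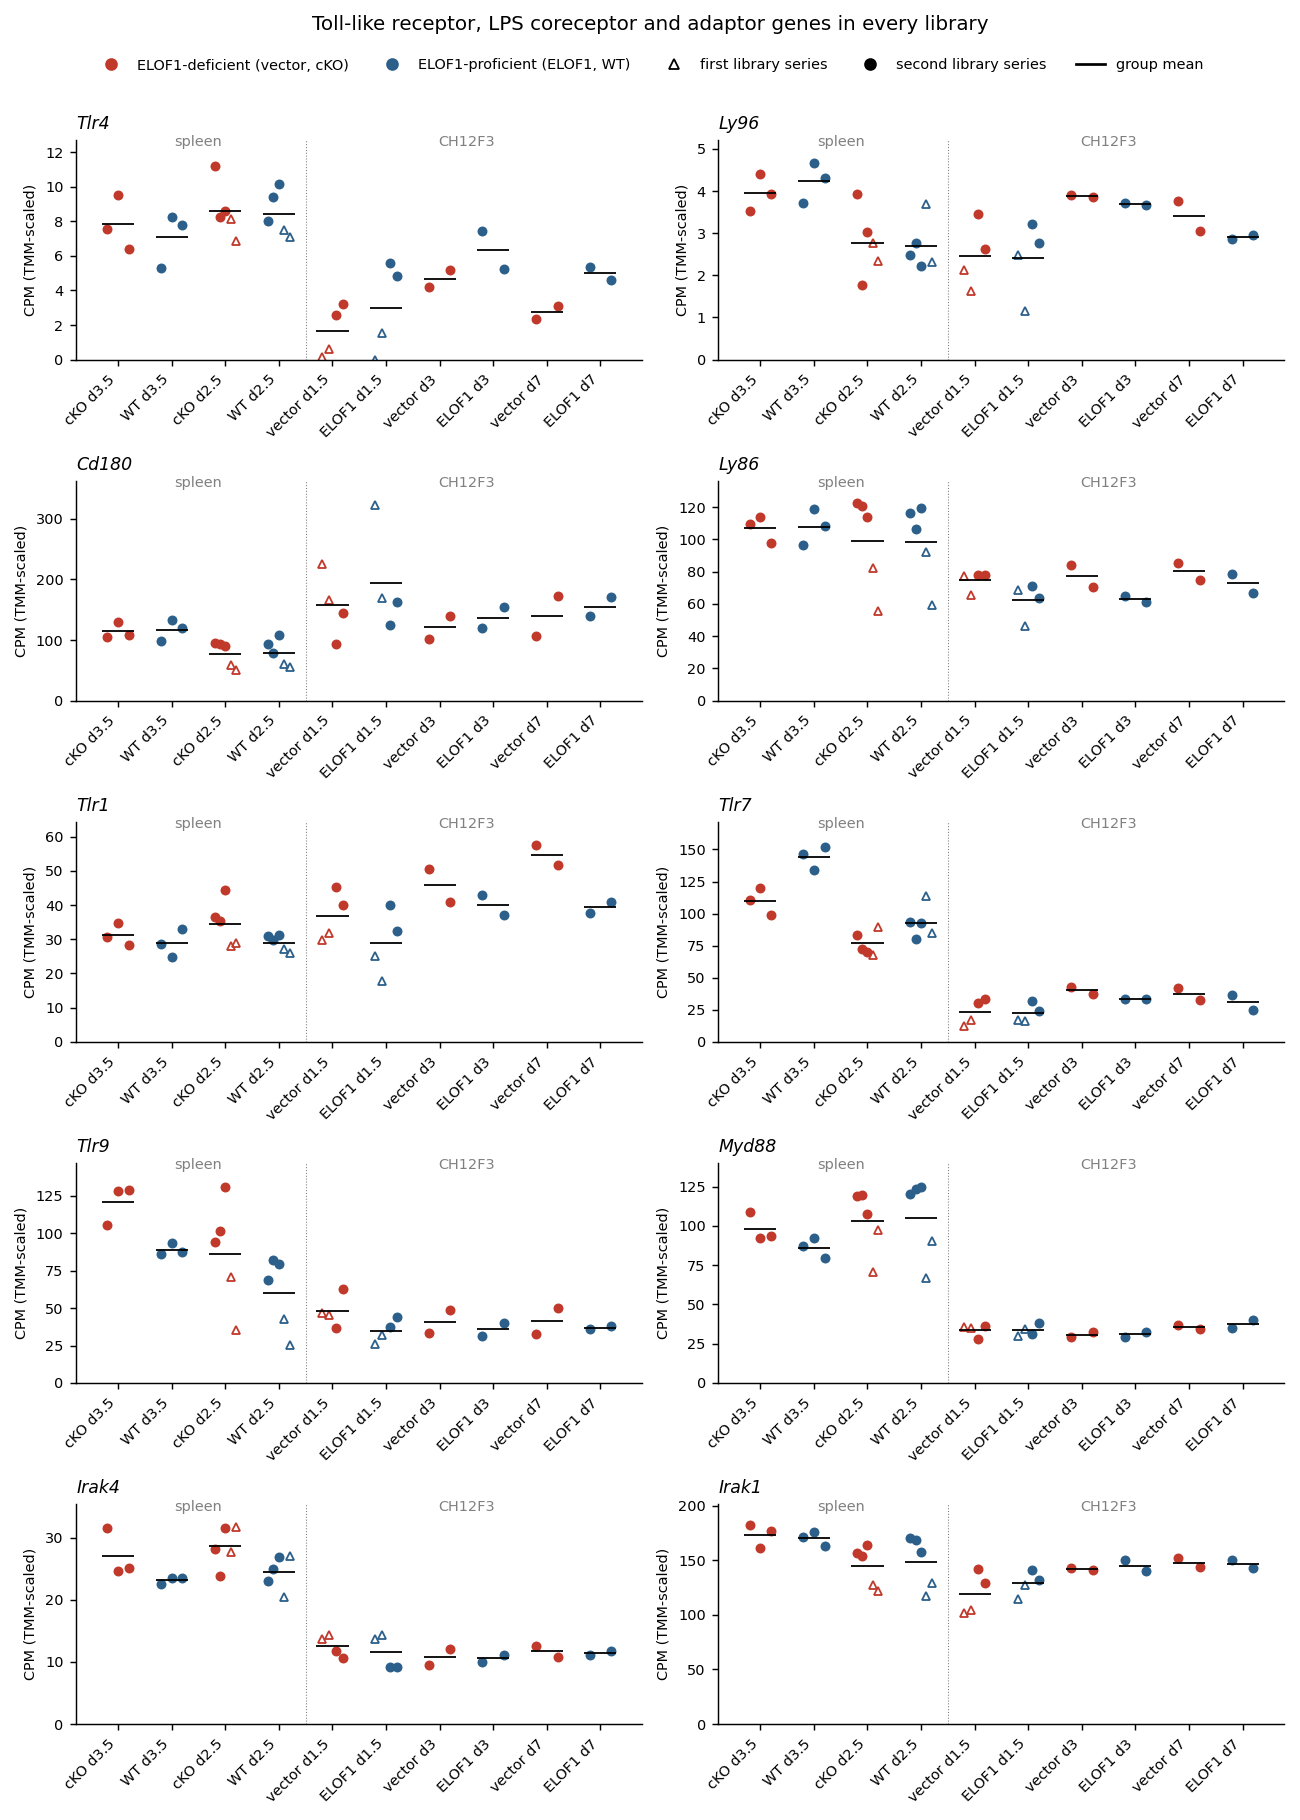
CPM of each of the 10 genes in every library (linear axes from 0), with the spleen groups on the left and the CH12F3 groups on the right of the dotted line. Red marks cKO or vector and blue marks WT or ELOF1; open triangles are the first library series, filled points the second, and bars are group means. In spleen at day 3.5 all cKO points of Tlr7 lie below, and all of Tlr9 above, the WT points.

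In spleen B cells, Tlr7 RNA fell and Tlr9 RNA rose without ELOF1 over both days, and the other 8 genes did not pass the test. At day 3.5, Tlr7 had 110.3, 120.2 and 98.6 CPM in cKO libraries, against 146.5, 133.7 and 151.9 CPM in WT libraries. At day 2.5, Tlr7 had 83.5, 72.4, 70.4, 67.7 and 89.8 CPM in cKO libraries, against 93.1, 80.3, 92.9, 113.6 and 85.0 CPM in WT libraries, the last 2 of each being the first series. All cKO values lay below all WT values at day 3.5, whereas at day 2.5 the genotypes overlapped, also within each series. Tlr7 averaged 109.7 ± 10.8 CPM in cKO and 144 ± 9.36 CPM in WT cells at day 3.5 (SD, n = 3 each), and 76.8 ± 9.45 CPM in cKO and 93.0 ± 12.7 CPM in WT cells at day 2.5 (n = 5 each). Over both days its log2 difference was -0.33 ± 0.08 (1.26-fold lower, adjusted p = 0.0151).

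Tlr9, the DNA sensor, moved the other way. At day 3.5 it had 105.4, 128.4 and 128.6 CPM in cKO libraries, against 85.8, 93.3 and 87.5 CPM in WT libraries. At day 2.5 it had 93.8, 101.4, 130.8, 70.6 and 35.5 CPM in cKO libraries, against 69.0, 82.2, 79.5, 42.6 and 25.4 CPM in WT libraries, with the first series last. The genotypes did not overlap at day 3.5 nor in the second series of day 2.5, and the first series was low in both genotypes and overlapped. Tlr9 averaged 120.8 ± 13.35 CPM in cKO and 88.9 ± 3.92 CPM in WT cells at day 3.5 (n = 3 each), and 86.4 ± 35.7 CPM in cKO and 59.75 ± 24.8 CPM in WT cells at day 2.5 (n = 5 each). Over both days its log2 difference was 0.50 ± 0.13 (1.41-fold higher, adjusted p = 0.0254).

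These were 2 of 10 genes, 1 in each direction, where 10.9% of all genes tested passed over both days (5.56% higher and 5.34% lower in cKO). Within a single day none of the 10 passed in the main edgeR fit, at day 3.5 (background 2.07%) or at day 2.5 (background 5.18%). In some other settings Tlr7 or Tlr9 passed within a day, with the counts in the closing section. At day 3.5 only Tlr7 had an unadjusted p under 0.05, as 13.5% of all genes did (-0.39 ± 0.13, adjusted p = 0.148; Tlr9 0.44 ± 0.21, adjusted p = 0.377) and DESeq2 called 0. At day 2.5, 3 genes had an unadjusted p under 0.05, as 18% of all genes did (Tlr9 0.55 ± 0.17, adjusted p = 0.0698; Tlr7 -0.27 ± 0.10, adjusted p = 0.146; Tlr1 0.24 ± 0.10, adjusted p = 0.199) and DESeq2 called 1, Tlr9 (adjusted p = 0.0237). Of all genes, DESeq2 called 312 higher and 261 lower of 12842 at day 3.5, and 538 and 495 of 12324 at day 2.5. In a fit blocked by replicate number, Tlr9 passed at day 3.5 (0.44, adjusted p = 0.00980) and at day 2.5 (0.53, adjusted p = 0.000300). Spleen numbers are, however, not shown to pair the genotypes. Within the second series the day 2.5 difference of Tlr9 was 0.49 ± 0.11 and that of Tlr7 -0.24, and within the first series they were 0.63 ± 0.44 and -0.35 ± 0.28. The genotype effect did not differ detectably between days for any of the 10 genes (0 called, with a background of 0%, 0 with an unadjusted p under 0.05, with a background of 2.08%, and 0 in DESeq2): the effect at day 3.5 minus that at day 2.5 was -0.12 ± 0.16 for Tlr7 and -0.11 ± 0.27 for Tlr9.

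The calls over both days rested on few libraries. Tlr7 lost its call without WT replicate 3 or cKO replicate 3 of day 3.5 (-0.31 and -0.30, adjusted p = 0.0536 and 0.0582). Tlr9 lost its call without cKO replicate 2 or 3 or WT replicate 1 or 3 of day 3.5 (0.47 to 0.50, adjusted p = 0.0596 to 0.0710). Without the series term Tlr9 did not pass either (0.49, adjusted p = 0.359). Under fly RNA scaling the median of all genes lay at -0.215, Tlr7 was at -0.53 (adjusted p = 0.0536) and Tlr9 at 0.29 (adjusted p = 0.256); relative to that median they were at -0.32 and 0.50. The fit takes the libraries of the 2 days as independent; with same-numbered libraries of a genotype correlated across days (limma, consensus correlation 0.0852), both still passed, Tlr7 at -0.33 (adjusted p = 0.0183) and Tlr9 at 0.48 (adjusted p = 0.0288). The share of calls that were higher in cKO was 51.0% with the scaling by TMM (trimmed mean of M-values) and 12.85% with fly RNA. Without the 4 libraries with Y-linked counts the log2 differences were -0.33 ± 0.10 for Tlr7 (adjusted p = 0.107) and 0.47 ± 0.18 for Tlr9 (adjusted p = 0.200). Tlr7 is X-linked, and those 4 libraries (cKO replicate 3 and WT replicate 2 of each day) had 98.6 CPM in cKO and 133.7 CPM in WT cells at day 3.5 and 70.4 CPM in cKO and 80.3 CPM in WT cells at day 2.5, the lowest value of the group in 3 of the 4 groups.

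**Figure D3:**
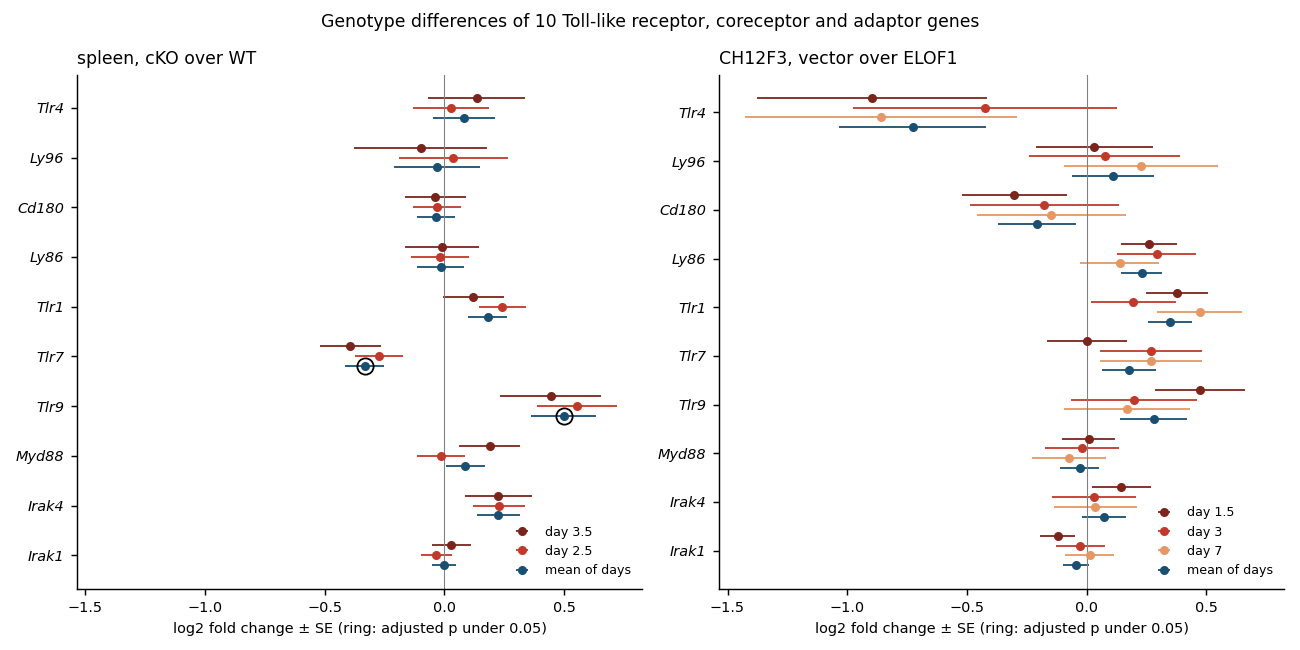
Log2 fold change of each gene in spleen (left, cKO over WT) and CH12F3 (right, vector over ELOF1) by day and over the mean of the days. Lines are ± 1 SE and rings mark an adjusted p under 0.05; the only rings are at Tlr7 (-0.33) and Tlr9 (0.50) for the mean of the spleen days.

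Because Tlr7 and Tlr9 moved apart, their ratio within a library, which needs no scaling, was also read; it was chosen after the values were seen and is a description. At day 3.5 there were 0.956, 1.07 and 1.30 counts of Tlr9 per count of Tlr7 in cKO libraries, against 0.586, 0.698 and 0.576 in WT libraries. At day 2.5 the ratios were 1.12, 1.40, 1.86, 1.04 and 0.395 in cKO libraries, against 0.741, 1.02, 0.856, 0.375 and 0.298 in WT libraries, the last 2 again being the first series. The cKO ratios lay above the WT ones at day 3.5 and within each series at day 2.5. In CH12F3 cells the ratios at day 1.5 were 3.84, 2.69, 1.21 and 1.90 in vector libraries, against 1.49, 1.97, 1.16 and 1.83 in ELOF1 libraries. The groups overlapped over all 4 pairs and in the second series but not in the first (the first 2 of each), and the vector ratio was the higher in 4 of 4 same-numbered pairs. At days 3 and 7 the groups overlapped.

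**Figure D4:**
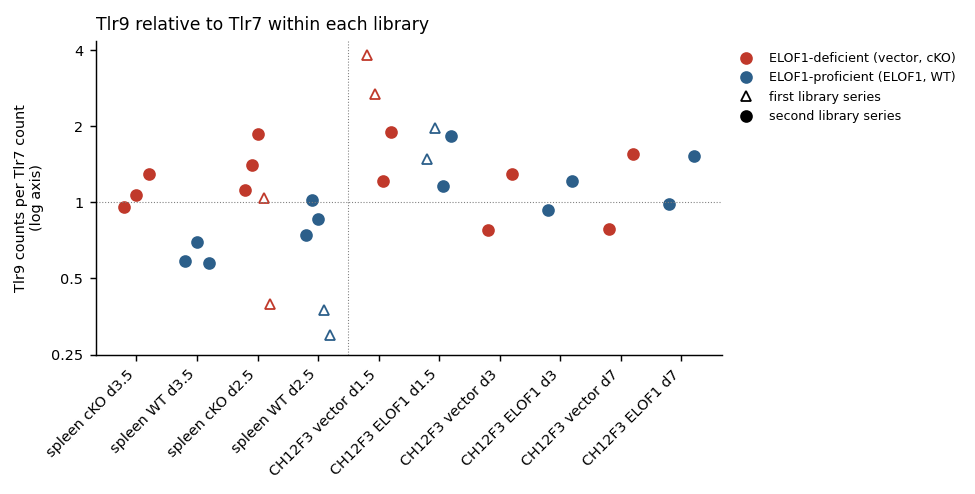
Counts of Tlr9 per count of Tlr7 in every library on a log axis, with groups along the x axis, red for cKO or vector, blue for WT or ELOF1, and open triangles for the first library series. In spleen the cKO ratios lie above the WT ratios within a day and series, from 0.956 to 1.30 against 0.576 to 0.698 at day 3.5.

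Of the other spleen genes, none passed over both days. Tlr1 was at 0.18 ± 0.08 (adjusted p = 0.183) and the kinase gene Irak4 at 0.23 ± 0.09 (adjusted p = 0.125), with intervals of ± 2 SE of 0.02 to 0.34 and 0.05 to 0.40. The LPS complexes showed values near 0: Tlr4 0.08 ± 0.13, Ly96 -0.03 ± 0.18, Cd180 -0.04 ± 0.08 and Ly86 -0.01 ± 0.10. The intervals were -0.20 to 0.13 for Cd180 and -0.21 to 0.18 for Ly86, and wider for Ly96 (-0.39 to 0.33), which had only 22 to 69 counts per library. Myd88 was at 0.09 ± 0.08, and Irak1 had an interval of -0.10 to 0.10. Under fly RNA scaling the signs of Tlr4 (-0.08), Tlr1 (-0.03) and Myd88 (-0.13) turned, none of them past the test. At day 3.5, 4 of the 10 genes did not overlap between genotypes (Tlr7 below WT, and Tlr9, Myd88 and Irak4 above), where 25.1% of all genes did not, and at day 2.5 none of the 10 did, where 3.12% of all genes did not. Irak4 had 31.6, 24.6 and 25.15 CPM in cKO libraries at day 3.5, against 22.6, 23.5 and 23.5 CPM in WT libraries, and Myd88 had 108.7, 92.5 and 93.6 CPM in cKO libraries, against 87.0, 92.2 and 79.4 CPM in WT libraries.

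Some genes used as markers of myeloid cells, which also express Toll-like receptors, differed between the spleen genotypes, in both directions. The macrophage, monocyte and granulocyte list (9 genes, 4 tested) summed to 23.0 to 31.96 CPM in cKO and 14.6 to 20.5 CPM in WT libraries at day 3.5, and to 17.2 to 27.7 CPM in cKO and 10.1 to 28.1 CPM in WT libraries at day 2.5. Of its genes Cd68 (log2 difference 0.61, adjusted p = 0.00119) and Itgam (1.01, adjusted p = 0.0386) rose in cKO over both days. Neither passed under fly RNA scaling (0.39, adjusted p = 0.171, and 0.83, adjusted p = 0.133). The other tested genes of the list did not pass over both days. The dendritic cell list (5 genes, 2 tested) summed to 20.8 to 26.1 CPM in cKO and 39.4 to 49.0 CPM in WT libraries at day 3.5, and to 11.98 to 24.4 CPM in cKO and 21.4 to 67.75 CPM in WT libraries at day 2.5. Of its genes Flt3 (-1.28, adjusted p = 0.00307) and Zbtb46 (-0.85, adjusted p = 0.000240) fell in cKO, under fly RNA scaling as well, while Clec9a had 0 counts in all 16 libraries and Siglech and Xcr1 had at most 2. Among the B cell genes Cd79b rose in cKO (0.27, adjusted p = 0.0450), but not under fly RNA scaling (0.04, adjusted p = 0.885). The called myeloid markers were also read in CH12F3 cells. Median CPM there was 19.85 for Cd68 and 34.84 for Zbtb46, against 12.2 and 12.41 in spleen. Flt3 (6.31 against 13.91 CPM) and Itgam (0.318 against 1.65 CPM) were lower in CH12F3. These transcripts alone do not show that myeloid cells were present, and their part in the Tlr7 and Tlr9 differences was not tested.

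Between the days of the spleen culture, with the genotypes averaged, Tlr7 and Cd180 rose and Myd88 fell by day 3.5. Cd180 had 105.7, 129.7 and 107.6 CPM in cKO and 99.1, 132.4 and 120.4 CPM in WT libraries at day 3.5. At day 2.5 it had 94.7, 94.1, 89.3, 59.1 and 50.8 CPM in cKO and 93.1, 78.2, 108.1, 59.7 and 55.7 CPM in WT libraries. The days overlapped in WT libraries and did not in cKO libraries. Myd88 had the values above at day 3.5, and 119.3, 119.8, 107.7, 70.6 and 97.3 CPM in cKO and 120.5, 123.6, 124.9, 66.7 and 90.4 CPM in WT libraries at day 2.5. The first series, last in each list and present at day 2.5 alone, was low for both genes, and within the second series the 2 days overlapped for Myd88 in cKO libraries and did not in WT libraries. For Tlr7 the days did not overlap in cKO (98.6 to 120.2 CPM at day 3.5 and 67.7 to 89.8 CPM at day 2.5) or in WT libraries (133.7 to 151.9 CPM at day 3.5 and 80.3 to 113.6 CPM at day 2.5).

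With the library series in the fit, day 3.5 over day 2.5 was 0.62 ± 0.09 for Tlr7 (1.54-fold, adjusted p = 0.000436), 0.32 ± 0.09 for Cd180 (1.25-fold, adjusted p = 0.0327) and -0.37 ± 0.09 for Myd88 (1.30-fold lower, adjusted p = 0.0142). These are 3 of 10 genes, where 11.1% of all genes tested passed (7.89% higher and 3.22% lower). Ly96 was at 0.60 ± 0.20 (adjusted p = 0.0673), and Tlr4 (-0.31 ± 0.14, adjusted p = 0.192) and Tlr1 (-0.20 ± 0.09, adjusted p = 0.180) did not pass. The remaining genes lay between -0.12 (Ly86) and 0.18 (Tlr9), with Irak1 at 0.09, or -0.07 under fly RNA scaling. Within the second series alone Tlr7 was at 0.63, Cd180 at 0.33, Myd88 at -0.36 and Ly96 at 0.62, all 4 with an adjusted p under 0.05. Fly RNA scaling moved the median of all genes to -0.15 and ended all 3 calls (Tlr7 0.47, Cd180 0.16, Myd88 -0.53), and relative to that median they were at 0.62, 0.31 and -0.38. Cd180 also lost its call without any 1 of 9 libraries: cKO replicates 1, 2 and 3 or WT replicates 1 and 2 of day 2.5, or replicates 2 and 3 of either genotype at day 3.5 (adjusted p = 0.05003 to 0.0955). Myd88 lost its call without the series term (-0.18, adjusted p = 0.394), and both did without the libraries with Y-linked counts (Cd180 0.22, Myd88 -0.41). Marker genes moved with day as well. Of the plasma cell genes Jchain (2.17), Sdc1 (1.09) and Xbp1 (0.40) rose, and Prdm1 did not pass. Xbp1 did not pass under fly RNA scaling (adjusted p = 0.456). The plasma cell list summed to 740.8 to 944 CPM in cKO and 738.8 to 1216 CPM in WT libraries at day 3.5. At day 2.5 it summed to 425 to 623 CPM in cKO and 458 to 639 CPM in WT libraries. Zbtb46 (1.11) and Cd68 (0.52) rose too. Of the 7 B cell markers Pax5 (-0.48) fell, and of the 5 marginal zone and follicular markers Cr2 (-0.99) and Dtx1 (-0.47) fell. The other markers of these B cell lists did not pass. Among these further markers Cd68 alone did not pass under fly RNA scaling (adjusted p = 0.359). The part of all these genes was not tested.

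**Figure D5:**
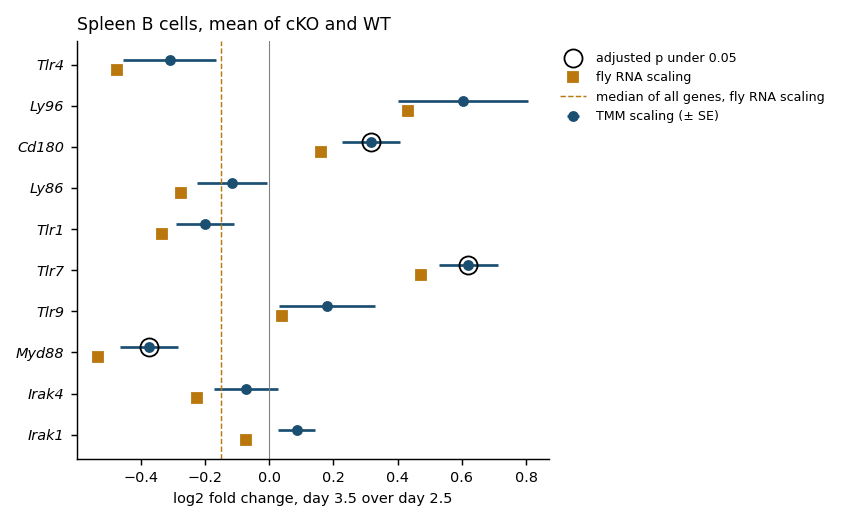
Log2 fold change of each gene from day 3.5 over day 2.5 in spleen B cells, averaged over genotypes. Circles with lines are TMM-scaled values ± 1 SE, rings an adjusted p under 0.05, squares the values under fly RNA scaling, and the dashed line the median of all genes under that scaling (-0.15). Tlr7 (0.62), Cd180 (0.32) and Myd88 (-0.37) carry rings.

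In CH12F3 cells none of the 10 genes passed the test between vector and ELOF1 cells at any day. At day 1.5 (background 1.15%), Tlr1 had 29.6, 31.95, 45.2 and 40.0 CPM in vector libraries, against 25.1, 17.7, 40.05 and 32.4 CPM in ELOF1 libraries. Tlr9 had 46.8, 45.2, 36.6 and 62.7 CPM in vector libraries, against 25.85, 32.2, 37.15 and 44.0 CPM in ELOF1 libraries. Ly86 had 77.1, 65.7, 77.8 and 78.15 CPM in vector libraries, against 68.75, 46.5, 71.2 and 63.8 CPM in ELOF1 libraries. All 3 overlapped between groups, although the vector library exceeded the ELOF1 library of the same number in 4 of 4 pairs for Tlr1 and Ly86 and in 3 of 4 for Tlr9. The log2 differences were 0.38 ± 0.13 for Tlr1 (adjusted p = 0.201), 0.47 ± 0.19 for Tlr9 (adjusted p = 0.282) and 0.26 ± 0.12 for Ly86 (adjusted p = 0.356); these 3 had an unadjusted p under 0.05, as 13.4% of all genes did, and DESeq2 called 0. In a fit blocked by replicate number 4 passed: Tlr1 (adjusted p = 0.0325), Tlr9 (0.0242), Ly86 (0.0342) and, lower in vector cells, Cd180 (-0.28, adjusted p = 0.0458). That fit also called far more of all genes, as the closing section gives, so 1.15% is not its background. Cd180 had 225.03, 166, 93.1 and 144 CPM in vector libraries, against 322, 169, 125 and 163 CPM in ELOF1 libraries, lower in 4 of 4 pairs. The share of all genes that go 1 way in 4 of 4 pairs was not counted, so these pair counts are descriptions.

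Tlr4 had few counts in CH12F3 cells. At day 1.5 it had 1, 6, 27 and 47 counts in vector libraries, against 0, 15, 71 and 73 counts in ELOF1 libraries, and the count of 0 allows up to 3 counts or 0.394 CPM. The pair from the first series was lower than the second in both groups, and the groups overlapped. At days 3 and 7 Tlr4 had 4.18 and 5.19 CPM and then 2.37 and 3.11 CPM in vector libraries, against 7.42 and 5.22 CPM and then 5.38 and 4.63 CPM in ELOF1 libraries. Over the 3 days its log2 difference was -0.73 ± 0.31 (adjusted p = 0.246), and with the block -0.71 (adjusted p = 0.0163).

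Over the mean of the CH12F3 days 0 of 10 passed (background 2.8%), 3 had an unadjusted p under 0.05 (Tlr1, Ly86 and Tlr4; background 17.2%) and DESeq2 called 1. Of 12549 genes, DESeq2 called 379 higher and 423 lower in vector cells. Tlr1 was at 0.35 ± 0.09 (adjusted p = 0.0636, in DESeq2 0.0175, with the block 0.00508), and Ly86 at 0.23 ± 0.09 (adjusted p = 0.184, with the block 0.00964). Leaving out ELOF1 replicate 3 of day 1.5 put Tlr1 at an adjusted p of 0.0498. At day 7 Tlr1 had 57.6 and 51.6 CPM in vector libraries, against 37.7 and 41.0 CPM in ELOF1 libraries, with a log2 difference of 0.47 ± 0.18 (adjusted p = 0.765). Days 3 (background 0.00704%) and 7 (background 0.0352%) each had 0 calls in edgeR and in DESeq2, with 0 and 1 genes at an unadjusted p under 0.05 (background 4.15% and 5.7%). With 2 libraries a group, 4 of 10 genes did not overlap at day 3 (Ly86, Ly96 and Tlr7 above, Tlr4 below ELOF1; 32.4% of all genes did not) and 3 of 10 at day 7 (Tlr1 and Ly96 above, Tlr4 below; 32.8%), and none of the 10 at day 1.5 (3.71%). Tlr7, which fell in spleen, was at 0.18 ± 0.11 over the CH12F3 days (interval -0.05 to 0.40), and Myd88 (-0.03 ± 0.08), Irak4 (0.07 ± 0.09) and Irak1 (-0.05 ± 0.05) were near 0. Under fly RNA scaling the median of all genes was -0.13, and the signs of Ly96 (-0.04) and Irak4 (-0.07) turned. Markers moved here too: over the days Prdm1 (-2.05) fell and Fcer2a (1.17), Flt3 (1.055) and Cd79b (0.28) rose in vector cells, of which Prdm1 alone passed under fly RNA scaling as well, and their part was not tested.

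The 10 genes did not change detectably with time in CH12F3 culture. At day 3 over day 1.5 (background 0.218%) and at day 7 over day 1.5 (background 1.32%), 0 of 10 passed in edgeR, 0 had an unadjusted p under 0.05 (background 8.61% and 12.6%) and DESeq2 called 0. At day 3 the values farthest from 0 were those of Tlr4 (0.48 ± 0.39), Ly96 (0.33 ± 0.23) and Tlr7 (0.29 ± 0.15). The genotype effect at days 3 and 7 did not differ detectably from that at day 1.5 for any of the 10 genes (0 called, with a background of 0%, 0 with an unadjusted p under 0.05, with a background of 1.22% and 1.92%, and 0 in DESeq2).

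Whether the genotype effect differed between the cell systems was tested in 1 fit of all libraries. None of the 10 genes passed in edgeR (background 2.28%), 2 had an unadjusted p under 0.05 (Tlr7 and Tlr4; background 11.8%) and DESeq2 called those 2 (adjusted p = 0.0150 and 0.0185). Of 12905 genes, DESeq2 called 293 with a positive and 278 with a negative difference. The spleen effect minus the CH12F3 effect was -0.51 ± 0.14 for Tlr7 (adjusted p = 0.0521) and 0.81 ± 0.31 for Tlr4 (adjusted p = 0.229). For Tlr9, spleen was at 0.50 ± 0.13 and CH12F3 at 0.28 ± 0.14, which did not pass in edgeR (adjusted p = 0.330). The difference between these effects was 0.22 ± 0.20 (adjusted p = 0.829).

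The wider pathway was read from 60 further genes in 6 lists, of which 53 were tested in spleen and 52 in CH12F3. Over both spleen days 7 of the 53 rose and 1 fell in cKO cells, where 10.9% of all genes passed; their median was 0.08 and that of all genes 0.00076. In the list of LPS transfer, folding and trafficking factors, 2 of 6 rose. Unc93b1, the chaperone that carries TLR7 and TLR9 to endosomes, had 485 ± 47.1 CPM in cKO and 366 ± 36.4 CPM in WT cells at day 3.5, and 370.3 ± 95.2 CPM in cKO and 283 ± 85.6 CPM in WT cells at day 2.5 (0.40, adjusted p = 0.00197). Slc15a4, an endolysosomal transporter that endosomal Toll-like receptor signalling requires, was at 0.22 (adjusted p = 0.0163) and at -0.0035 under fly RNA scaling. Of 4 other Toll-like receptors tested 1 rose: Tlr6, another partner of TLR2, had 6.57 ± 0.297 CPM in cKO and 3.83 ± 0.958 CPM in WT cells at day 3.5, and 4.96 ± 1.33 CPM in cKO and 3.28 ± 0.593 CPM in WT cells at day 2.5 (0.69, adjusted p = 0.00604).

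Of 5 interferon regulatory factors Irf5, which acts downstream of MyD88, rose (0.32, adjusted p = 0.00126). Of 15 genes of the TAK1, IKK and TBK1 complexes, Ikbkb, the IKKβ kinase, rose (0.27, adjusted p = 0.00169) and Chuk, the IKKα kinase, fell (-0.19, adjusted p = 0.0489). Of 10 other proximal adaptors and kinases the ubiquitin ligase Peli1 rose (0.35, adjusted p = 0.0267), and of 13 negative regulators the deubiquitinase Cyld rose (0.24, adjusted p = 0.0147). Under fly RNA scaling none of the 8 passed, and the sign of Slc15a4 turned. At day 3.5 only Slc15a4 rose (0.42, adjusted p = 0.0190), and at day 2.5 Ikbkb, Irf5 and Unc93b1 rose, where 2.07% and 5.18% of all genes passed, and none of these passed under fly RNA scaling. With time in spleen 5 of the 53 passed, where 11.1% of all genes did. Tlr12 (0.90), the adaptor Ticam2 (0.36) and the phosphatase Dusp1 (0.55) rose, and the kinase Lyn (-0.28) and Irf3 (-0.24) fell by day 3.5. Under fly RNA scaling Tlr12 passed (0.75, adjusted p = 0.0142) and the other 4 did not (adjusted p = 0.198 to 0.528).

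In CH12F3 cells 1 of the 52 fell without ELOF1 and none rose, where 1.15% of all genes passed at day 1.5 and 2.8% over the days. It was the TAK1-binding protein gene Tab1, at -0.59 at day 1.5 (adjusted p = 0.0243, under fly RNA scaling 0.131) and -0.51 over the days (adjusted p = 0.00624, under fly RNA scaling 0.0160). With CH12F3 culture time Zc3h12a, an RNase that limits inflammation, fell by day 3 (-0.71) and Irf8 by day 7 (-0.88), each 1 of the 52, where 0.218% and 1.32% of all genes passed, and neither passed under fly RNA scaling (adjusted p = 0.192 and 0.0613). Between the systems 34 of 53 were higher and 9 lower in spleen, where 37.9% of all genes were higher and 37.5% lower. Under fly RNA scaling, which moved the median of all genes to -1.24, 22 of the 34 turned sign.

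For the members called by genotype, the genes with the most similar profile over the 10 group means were sought among 8941 genes as the smallest root mean square difference of centred log2 CPM. For Tlr7, whose own deviation was 0.939, these were Cradd (0.216), H2-Q7 (0.230) and Lamp1 (0.238). For Tlr9, whose own deviation was 0.601, they were Abca7 (0.122), Mon1b (0.123) and Lasp1 (0.125). These profiles also hold the difference between the cell systems, which was 1.80 for Tlr7 and 1.44 for Tlr9. The spleen genotype differences were smaller (-0.33 and 0.50), so a similar profile does not show a shared genotype effect.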

How the data were processed

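Total RNA was depleted of ribosomal RNA and made into strand-specific libraries, per the labels' protocols, with fly RNA added in proportion to cell number. The deposited files are 2 tables of raw read counts per gene (60854 genes each, 43345 of them mouse), 1 per cell system; Bowtie2, featureCounts, mouse build mm10 and fly build dm6 are listed, without roles or versions, per the submitters' processing notes. Genes without a symbol took 0.355% to 0.470% of mouse counts and stayed in library sizes.

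Mouse counts were scaled by TMM and tested 2-sided with edgeR 4.0.16 (limma 3.58.1, R 4.3.3): quasi-likelihood fits of group and library series on the 16 libraries of each system, or on all 32 for comparisons between systems, with genes kept by filterByExpr (minimum count 10; 13367 in spleen, 14201 in CH12F3 and 15639 jointly, all 10 members in each). P-values were adjusted by Benjamini-Hochberg over all genes tested, and a gene passed under 0.05. Log2 differences are given ± SE. CPM is per system; TPM used the gene lengths in the tables. DESeq2 1.42.0, fly RNA scaling and the other settings of the closing section were alternatives, those without the libraries with Y-linked counts and with limma (voom, and duplicateCorrelation across spleen days) added after seeing the data. The fits were tested on simulated data. Tables and figures used Python 3.11.15, pandas 2.3.3, NumPy 2.4.6 and matplotlib 3.10.9.

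The genes and lists were chosen with earlier results of these data known. All 10 members were reported, with up to 4 called genes per further list and comparison (smallest p first), and the 3 genes most like each member called by genotype among genes whose log2 CPM averaged 3 or more. One marker gene is not reported here. No pair of libraries in a group agreed within sampling noise (lowest chi-square per degree of freedom 3.20). Replicate numbers come from the titles. Same-numbered CH12F3 libraries of day 1.5 deviated together (correlations 0.636 to 0.672, within a series 0.427 to 0.476), as did those of days 3 and 7 (0.498 and 0.337); in spleen at day 2.5 the correlations were 0.279 to 0.796 but -0.198 to 0.784 within a series, with Y-linked counts in WT replicate 2 and cKO replicate 3, and at day 3.5 -0.281 to 0.0703, so spleen numbers are not shown to pair the genotypes. Across the spleen days, same-numbered libraries of a genotype had correlations of -0.0284 to 0.218 in cKO and 0.165 to 0.185 in WT. Intervals of ± 2 SE come from the fits and include the spread between libraries. The limit on a count of 0 (3 counts) covers counting error only.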

Additional observations from a re-analysis of the deposited data

Results flagged for a closer look

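In 2 of the 40 gene and group combinations with 4 or 5 libraries, 1 library lay far from the rest of its group; chance gives about 1 in 20. Ly86 had 65.73 CPM in CH12F3 vector replicate 2 of day 1.5, where the nearest of the other 3 had 77.09 CPM. Myd88 had 27.98 CPM in CH12F3 vector replicate 3 of day 1.5, where the nearest of the other 3 had 35.11 CPM. Neither gene passed the test at that day.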

How the results depend on the processing

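Over the members and comparisons, 3863 alternative values kept direction and call or were uncalled in both settings, 53 came to pass, 29 no longer passed and 4 that passed in at least 1 of the settings turned sign; the causes were not tested. Values uncalled in both settings turned sign as well, as given with the results. The 4 are the spleen over CH12F3 differences of Ly96 (-1.04), Irak1 (-0.83), Tlr4 (-0.11) and Ly86 (-0.44) under fly RNA scaling. Members called, cKO against WT over both days (2 of 10): 0 with fly RNA scaling, 1 with no library series term, 0 without the libraries with Y-linked counts. At day 3.5 (0 of 10): 1 with no filter, 2 with the second series only, 2 with only the compared groups, 1 with the replicate block. At day 2.5 (0 of 10): 1 each with no filter, the second series only, the DESeq2 test and the replicate block. Day 3.5 over day 2.5 (3 of 10): 0 with fly RNA scaling, 1 without the libraries with Y-linked counts, 5 with the replicate block. Vector against ELOF1 at day 1.5 (0 of 10): 1 with no filter, 4 with the replicate block. Over the CH12F3 days (0 of 10): 2 with no filter, 1 with the DESeq2 test, 4 with the replicate block. Difference of the genotype effect between systems (0 of 10): 1 each with DESeq2 size factors, no filter and the second series only, 2 with the DESeq2 test. Leaving out 1 library at a time gave 0 to 1 calls over the CH12F3 days, 0 to 1 at spleen day 2.5, 0 to 2 over both spleen days, 2 to 4 for spleen time, 8 to 9 between systems, 0 to 1 for the difference between systems, and 0 in each other comparison. Spleen numbers are not shown to pair libraries (4 of 10 correlated best with their own number at day 2.5 and 1 of 6 at day 3.5, as a hint from the data), and the block changed no other call by over 1.5 times. Correlating same-numbered spleen libraries of a genotype across days in limma, added after seeing the data, kept the 2 calls over both days and gave 4 for spleen time, as limma did without the correlation. The CH12F3 time comparisons have no blocked fit, because the number cannot be separated from the series. The member counts above are not results about the members, because the settings also called different numbers of all genes. Over all genes, the spleen calls over both days (1457 of 13367) ranged from 507 without the libraries with Y-linked counts to 2571 with the block. The vector against ELOF1 calls of day 1.5 (164 of 14201) ranged from 0 in the second series alone to 1221 with the block. The block tested the same genes as the main fit. For day 3.5 over day 2.5, fly RNA scaling called 288 higher and 122 lower, against 1055 and 430 with TMM. Depth limits Tlr4 in CH12F3 (0 to 92 counts) and Ly96 (11 to 69 counts in any library).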

Other observations

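Some transcripts named after myeloid cells were abundant in the CH12F3 line. Csf1r, the receptor for colony-stimulating factor, had at most 7 counts in spleen libraries and 255 to 698 counts in CH12F3 libraries, and Adgre1 (F4/80) had 41 to 2860 counts in CH12F3 libraries, while Cd14 had at most 1, Lyz2 at most 7, and S100a8 and S100a9 had 0. Of the Toll-like receptors outside the 10 genes, Tlr2, the partner of TLR1, had 14 to 65 counts in spleen libraries and 118 to 297 in CH12F3 libraries, and Tlr3, Tlr5, Tlr8, Tlr11 and Tlr13 had at most 17 counts in any library.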
